A study of Mus musculus with 8 samples.

Results

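The molar germs of Notum-null mouse embryos were followed from the cap stage (embryonic day 14.5, E14.5) to the bell stage (E16.5) by bulk RNA sequencing, and the genes that moved between the 2 ages are described here. The members are all genes with a mean above 0.3 FPKM (read pairs per kilobase of a gene, adjusted to the depth of the library) over the 4 Notum-/- libraries, without those on chromosomes X and Y: 17809 of the 54532 genes listed. Notum-/- embryos carried the homozygous em1(IMPC)Tcp allele on C57BL/6N, and Notum+/+ littermates of the same 2 ages were the controls (2 libraries per group, 4 Notum-/- and 4 Notum+/+). Germs of upper and lower molars were taken, the methods give n = 3 for each biological replicate, embryos were assigned without regard to sex, and the allele is carried by every tissue of the embryo and not by the tooth alone. The comparison asks which parts of the cap-to-bell programme run when Notum is absent.

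At the cap stage the dental epithelium folds around a knob of condensed mesenchyme, and a cluster of non-dividing epithelial cells, the primary enamel knot, secretes signals of the Wnt, Hedgehog, FGF and BMP families. At the bell stage secondary enamel knots form where the cusps will stand, the epithelium and the mesenchyme prepare to become ameloblasts and odontoblasts, and bone is modelled around the growing crown. Notum is a secreted enzyme that removes the lipid from Wnt ligands and so stops them from binding their receptors, and it is itself a target of Wnt signalling.

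Depth on listed genes was 21972354 to 30540596 reads per library, so that 1 read on a gene of 1 kb equals 0.0325 to 0.0452 FPKM. Notum (ENSMUSG00000042988, minus strand of chromosome 11 from 120653788 to 120661175 in mm10) stood at 1.0 and 1.04 FPKM in the Notum-/- libraries of E14.5 and at 2.72 and 2.31 FPKM in those of E16.5. The Notum+/+ libraries had 2.65 and 1.85 FPKM at E14.5 and 9.33 and 9.57 FPKM at E16.5, so the Notum-/- mean was 45.3% and then 26.6% of the Notum+/+ mean. Reads of the mutant gene remained, and they rose with age (log2 fold change 1.22, standard error (SE) 0.14, limma adjusted p = 0.0127). A gene-level value covers the whole gene, the position of the lesion is not given in the sources used here, and 2 listed antisense RNAs overlap Notum.

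The 2 Notum-/- libraries of E16.5 were the closest pair of the series. Their reads differed beyond counting noise at 773 of 18599 genes (chi-square, adjusted p under 0.05), or 4.16%, against 13.4% to 20.4% in the other 3 pairs, and they were kept as 2 samples. Xist, which is expressed from the inactive X chromosome of female cells, was at 27.8 and 27.0 FPKM in the Notum-/- libraries of E14.5 and at 83.7 and 85.0 FPKM in those of E16.5, and the Y-linked Ddx3y was at 17.8 and 16.9 FPKM and at 11.2 and 12 FPKM. In the Notum+/+ libraries Xist was at 87.5 and 92.6 FPKM at E14.5 and at 111 and 107 FPKM at E16.5, and Ddx3y was at 6.26 and 6.96 FPKM and then at 0 in both. The Notum+/+ libraries of E16.5 thus showed no RNA of this gene of male embryos, and the other 3 groups held it in unequal amounts. Sex is confounded with the groups, and its part in the age effects and in their difference cannot be told apart. Nothing in the labels says how the germs were divided between the libraries, so the p-values measure the spread between these libraries, which may be technical.

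In Notum-/- molars 1340 genes were higher at E16.5 than at E14.5 and 785 were lower (limma on log2(FPKM + 0.1), Benjamini-Hochberg adjusted p under 0.05), which is 7.52% and 4.41% of the genes tested. A change of more than 2-fold was seen for 465 of those higher and 140 of those lower, and the median log2 fold change over all genes was -0.01. Non-overlap of the 2 ages is common in this design and was found for 60.6% of all genes, and 2 libraries against 2 cannot go below p = 0.333 in an exact permutation test. The calls depended on having both libraries of E16.5. Without E16.5 replicate 1 no gene passed (1883 higher and 1414 lower at an unadjusted p under 0.05), and without replicate 2 no gene passed either (1728 and 1297), whereas voom on rebuilt reads called 2391 and 1920 from all 4 libraries. Alternatives chosen after seeing the data fitted all 4 groups together, with either E16.5 replicate left out or with the pair averaged into 1 library. Each of them called fewer genes in both directions than the main fit. Of the called genes that the text names, 19 lost their call with the pair averaged (adjusted p from 0.0556 to 0.139): Bmp4, Dkk4, Dlx2, Dlx5, Dusp6, Fzd7, Fzd9, Gli3, Igf2, Igfbp5, Il17rd, Jag2, Msx1, Nrarp, Postn, Sox2, Sp6, Tnfrsf11a and Tnfsf11. Counts that follow for a gene list give the members tested, and all were read against the shares of 7.52% and 4.41%. A second count with the pair averaged is given for some lists only. Several lists without it changed too, among them the FGF, Wnt receptor, bone, jaw, muscle and mast cell lists.

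**Figure D1:**
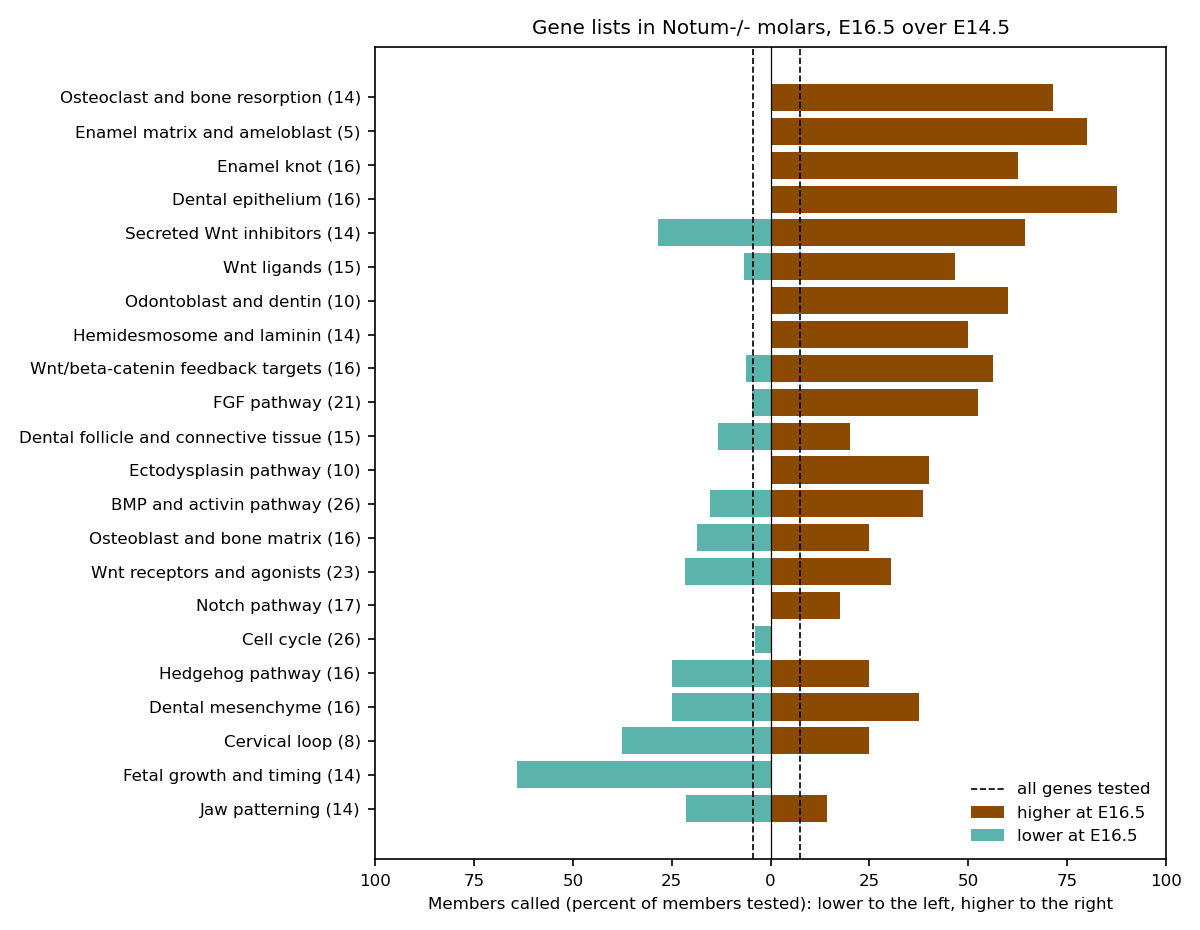
Share of the members of 22 gene lists called higher (right) or lower (left) at E16.5 in Notum-/- molars, in percent of the members tested (their number in brackets), ordered by the median log2 fold change. Dashed lines mark the shares over all 17809 genes (7.52% higher, 4.41% lower); the dental epithelium has 14 of 16 members higher and the fetal growth list 9 of 14 lower.

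Most genes listed for the enamel knot were called higher, but some of them are not confined to the knot. Of Dkk4, Fgf20 and Fgf4, which the paper names as knot markers, Dkk4 alone passed. Of 16 genes listed, all were tested, 10 passed as higher, none as lower, and the median log2 fold change was 0.82. With the E16.5 pair averaged into 1 library 8 were still called higher. Shh, a Hedgehog ligand, was at 12.4 and 12 FPKM at E14.5 and at 74.8 and 77.0 FPKM at E16.5 (log2 fold change 2.63, SE 0.05, adjusted p = 0.000526). In sections the paper saw Shh in the primary knot at E14.5 and, at E16.5, in inner dental epithelium. The rise of Shh is therefore not a measure of the secondary knots alone. Msx2, a homeobox gene of the knot and the inner enamel epithelium, went from 5.63 and 5.59 FPKM to 25.7 and 25.3 FPKM (log2 fold change 2.16, adjusted p = 0.000595). Both genes rose more than 4-fold and their replicates differed little. The growth factor Fgf3 rose from 6.66 and 6.70 FPKM to 14.6 and 15.3 FPKM, and Fgf9 from 2.0 and 2.19 FPKM to 4.32 and 4.93 FPKM. The cell cycle inhibitor Cdkn1a, which marks the arrested cells of the knot, rose from 12.6 and 12 FPKM to 20.8 and 22.3 FPKM. Dkk4, a secreted Wnt inhibitor induced by Wnt signalling in the knot, rose from 1.43 and 2.22 FPKM to 4.54 and 4.74 FPKM (log2 fold change 1.33, SE 0.22, adjusted p = 0.0276). Sp6, a transcription factor of the enamel epithelium, rose from 0.255 and 0.401 FPKM to 0.939 and 1.25 FPKM. Wnt10b, Bmp7 and Edar were the other 3 called.

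Knot genes that did not pass were Fgf4 (1.89 and 2.63 FPKM, then 2.71 and 2.77 FPKM), Fgf15, Fgf20, Slit1, Bmp2 and Lef1. Bmp2 was at 7.52 and 7.51 FPKM and then at 5.76 and 6.81 FPKM. Fgf20, an FGF ligand of the primary knot, stood apart from its course with Notum present. It was at 1.66 and 1.81 FPKM at E14.5 and at 2.21 and 1.83 FPKM at E16.5 in Notum-/- molars (log2 fold change 0.20, adjusted p = 0.398), and at 1.19 and 1.22 FPKM and then 0.494 and 0.431 FPKM in Notum+/+ molars (log2 fold change -1.22, adjusted p = 0.0129). The 2 age effects differed by 1.42 on the log2 scale (SE 0.21, adjusted p = 0.0101). Micu3 overlaps Fgf20 in the annotation. Dkk4 differed in another way: it rose in both genotypes, with 0.726 and 1.10 FPKM and then 1.89 and 2.08 FPKM in Notum+/+ molars, and the difference of its age effects was 0.26 (adjusted p = 0.631). Its Notum-/- level was thus above that of Notum+/+ at either age.

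**Figure D2:**
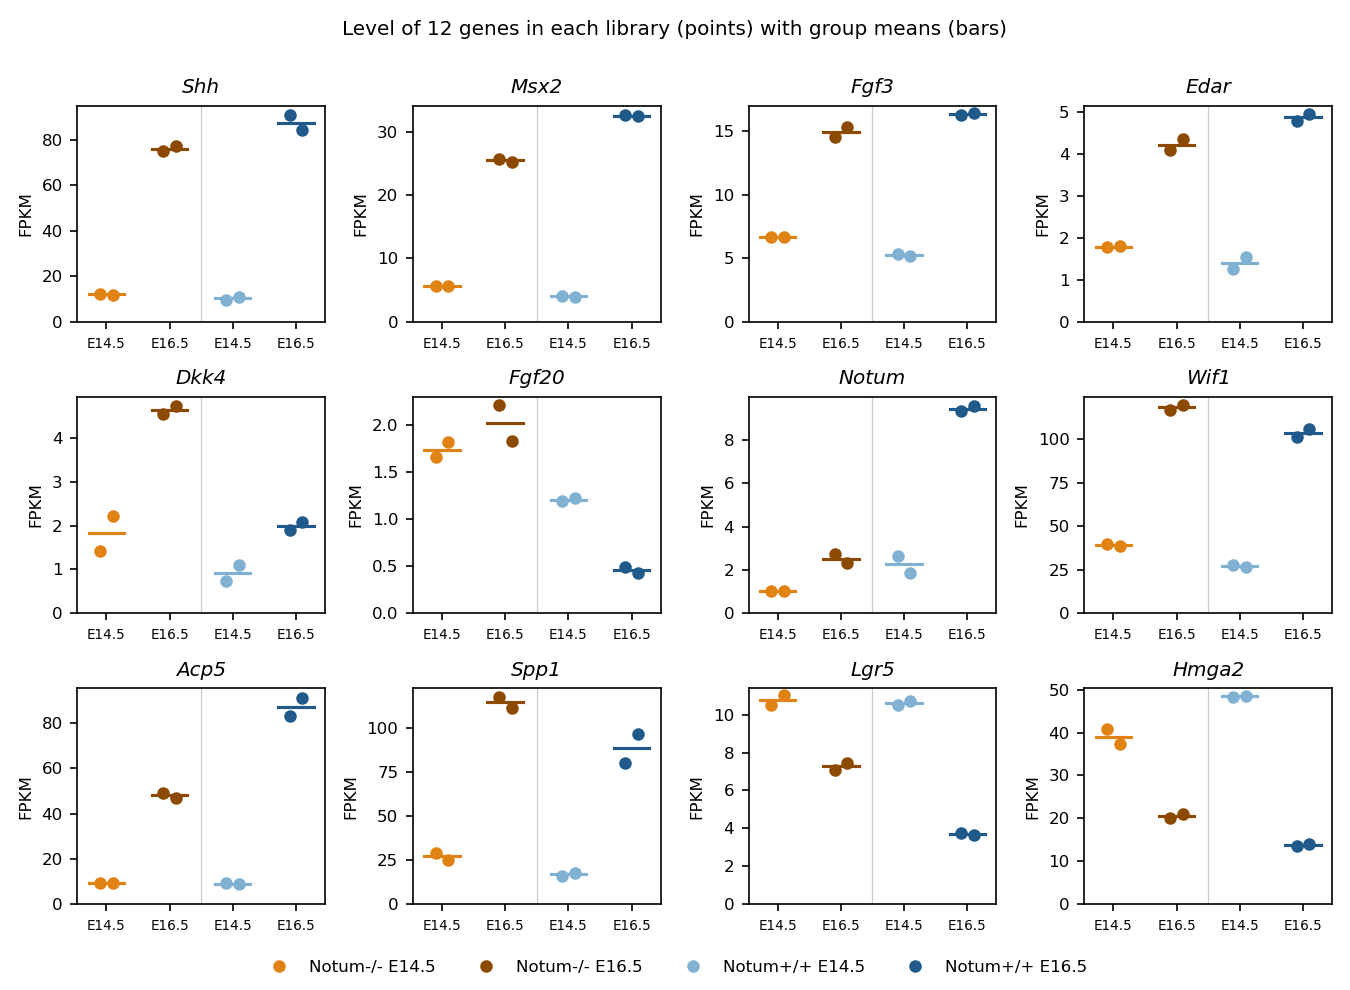
FPKM of 12 genes in each library, as points, with the mean of each group as a bar; in every panel the Notum-/- ages are on the left and the Notum+/+ ages on the right. Shh, Msx2, Fgf3, Edar, Dkk4, Notum, Wif1, Acp5 and Spp1 rose with age in Notum-/- molars, Lgr5 and Hmga2 fell, and Fgf20 stayed near 2 FPKM where the Notum+/+ libraries fell below 0.5.

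Edar, the receptor of the signal ectodysplasin and a gene of knot and placode, went from 1.79 and 1.80 FPKM to 4.09 and 4.36 FPKM (log2 fold change 1.19, SE 0.09, adjusted p = 0.00557). Its intracellular adaptor Edaradd rose from 2.42 and 2.78 FPKM to 4.89 and 5.02 FPKM. The related receptor Tnfrsf19 (Troy) rose from 38.8 and 36.2 FPKM to 56.6 and 57.3 FPKM, and the inhibitor Nfkbia, an NF-κB target, also passed. These were 4 of the 10 genes of the ectodysplasin pathway tested, and none fell. The promoters of Edar and Tnfrsf19 are shown because both genes rose and both hold the core of the TCF/LEF motif, by which β-catenin reaches DNA (CTTTGAT or, on the other strand, ATCAAAG, in capitals). The sequences are from RefSeq, build GRCm38.p6 (mm10), and run 5′ to 3′ along the gene, with 250 bases before and 50 after the start.
Edar, chr10:58675647-58675946, minus strand: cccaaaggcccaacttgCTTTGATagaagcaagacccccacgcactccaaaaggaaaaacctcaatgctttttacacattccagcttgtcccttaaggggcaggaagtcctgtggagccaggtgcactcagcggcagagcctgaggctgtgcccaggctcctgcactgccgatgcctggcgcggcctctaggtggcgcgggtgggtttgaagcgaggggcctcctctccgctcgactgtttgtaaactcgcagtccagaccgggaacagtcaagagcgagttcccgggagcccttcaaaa
Tnfrsf19, chr14:61037938-61038237, minus strand: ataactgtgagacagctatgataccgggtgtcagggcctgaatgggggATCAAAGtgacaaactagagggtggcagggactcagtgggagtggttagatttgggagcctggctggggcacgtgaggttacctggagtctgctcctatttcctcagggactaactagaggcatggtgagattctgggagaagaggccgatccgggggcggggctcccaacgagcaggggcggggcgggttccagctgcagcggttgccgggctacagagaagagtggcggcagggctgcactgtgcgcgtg
The motif begins 233 bases before the start in Edar and 202 bases before it in 1 of the 2 promoters of Tnfrsf19. It was found in 1 of the 6 knot genes called higher that had an entry, in 1 of the 3 Wnt feedback targets called higher that had one, and for 4.29% of all 27025 genes with an entry of the same length (3.73% of 32851 promoters). A match describes letters and is not a measured site.

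In the Hedgehog pathway, downstream of Shh, genes were called in both directions. Ptch1, the Shh receptor and a direct target, rose from 30.1 and 30.3 FPKM to 53.6 and 54.6 FPKM (log2 fold change 0.84, adjusted p = 0.00254). The ligand trap Hhip rose from 3.97 and 4.48 FPKM to 11.7 and 12.1 FPKM. Of 16 genes tested 4 were called higher, among them Shh, Ptch1 and Hhip, while the co-receptors Cdon, Boc and Gas1 and the transcription factor Gli3 were the 4 called lower. Cdon went from 23.0 and 24.4 FPKM to 15.5 and 15.8 FPKM. Gli1, another target, was at 38.8 and 41.6 FPKM and then at 41.3 and 42.3 FPKM (adjusted p = 0.545). The ligand-binding inhibitors Ptch1 and Hhip were thus higher and the co-receptors lower.

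In the FGF pathway 11 of 21 genes were higher and 1 was lower. Besides the ligands Fgf3 and Fgf9 of the knot, the mesenchymal ligand Fgf10 rose from 6.43 and 6.25 FPKM to 9.25 and 8.74 FPKM, and so did the receptors Fgfr1 and Fgfr2 and the response genes Spry1, Spry2, Spry4, Dusp6, Etv4 and Il17rd. Etv4 went from 18.5 and 19.4 FPKM to 28.3 and 28.3 FPKM. Fgf18 alone fell, from 9.50 and 9.66 FPKM to 4.13 and 3.66 FPKM (log2 fold change -1.28, SE 0.08, adjusted p = 0.00405). Among BMP and activin genes 10 of 26 were higher and 4 lower, and 7 and 2 with the E16.5 pair averaged. The mesenchymal ligand Bmp4 rose from 21.4 and 22.4 FPKM to 28.4 and 27.8 FPKM, and the response genes Id1, Id3 and Id4 rose with it. The activin subunit Inhbb rose from 0.672 and 0.941 FPKM to 2.05 and 2.03 FPKM. Bmp6 was lower, at 11.2 and 12.6 FPKM and then at 7.19 and 7.60 FPKM. In the Notch pathway 3 of 17 genes were higher (Jag2, Lfng and Nrarp) and none was lower, and 1 was called with the pair averaged.

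Most Wnt ligands and feedback targets that moved rose, while receptors were split. Of 15 Wnt ligands tested 7 were higher and 1 was lower. Wnt10a, expressed in knots and later in odontoblasts, rose from 6.00 and 6.63 FPKM to 14.6 and 16.8 FPKM (log2 fold change 1.30, SE 0.10, adjusted p = 0.00538). Wnt3a rose from 1.48 and 1.28 FPKM to 4.91 and 4.45 FPKM, and Wnt7a from 0.258 and 0.170 FPKM to 1.44 and 1.33 FPKM. Wnt4, Wnt5a, Wnt6 and Wnt10b completed the 7. Wnt2 fell from 3.24 and 3.45 FPKM to 0.922 and 1.22 FPKM (log2 fold change -1.57, SE 0.16, adjusted p = 0.0103). The summed level of the ligand list was 85.5 and 89.8 FPKM at E14.5 and 132 and 137 FPKM at E16.5.

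Of 23 Wnt receptors and agonists 7 were higher and 5 lower, with a median log2 fold change of 0.04. The R-spondins, secreted agonists that raise the number of Wnt receptors, moved in opposite directions. Rspo4 rose from 2.10 and 2.65 FPKM to 11.8 and 12.2 FPKM and Rspo2 from 4.47 and 3.87 FPKM to 11.5 and 11.4 FPKM, whereas Rspo3 fell from 7.49 and 6.80 FPKM to 3.53 and 3.12 FPKM. Their receptors split too: Lgr6 rose from 4.56 and 4.78 FPKM to 7.63 and 7.69 FPKM, and Lgr5 fell from 10.5 and 11.0 FPKM to 7.06 and 7.47 FPKM. Of the Frizzled receptors Fzd3, Fzd6, Fzd7 and Fzd10 were higher and Fzd4, Fzd8 and Fzd9 lower.

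Secreted Wnt inhibitors other than Notum moved in both directions. Of 14 tested, Notum included, 9 were higher and 4 lower, and with the E16.5 pair averaged into 1 library the counts were 8 and 4. Wif1, which binds Wnt ligands, rose from 40.0 and 38.7 FPKM to 117 and 120 FPKM (log2 fold change 1.59, SE 0.05, adjusted p = 0.000774). Sostdc1, an inhibitor of Wnt and BMP signals around the knots, rose from 121 and 110 FPKM to 181 and 176 FPKM. Dkk1 rose from 9.90 and 9.71 FPKM to 14.8 and 14.5 FPKM, and Sfrp4 from 3.61 and 3.31 FPKM to 6.72 and 7.07 FPKM. The 4 that fell included Sfrp2, the most abundant of the list at E14.5, which went from 304 and 327 FPKM to 159 and 165 FPKM (log2 fold change -0.96, SE 0.06, adjusted p = 0.00448). Frzb, Dkk2 and Sfrp1 were lower as well. The summed level of the list was 718 and 731 FPKM at E14.5 and 719 and 718 FPKM at E16.5, a nearly equal total at both ages.

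Among 16 feedback targets of Wnt/β-catenin signalling 9 were higher and 1, Lgr5, was lower (median log2 fold change 0.35), and 6 were higher with the pair averaged. Tcf7, a transcription factor of the pathway, rose from 20.5 and 21.2 FPKM to 40.5 and 40.8 FPKM. Bambi, a decoy receptor, rose from 6.68 and 6.65 FPKM to 14.0 and 13.4 FPKM, and Rnf43, an enzyme that removes Wnt receptors, from 3.08 and 3.33 FPKM to 5.29 and 5.86 FPKM. Axin2, the most widely used reporter of the pathway, was at 11.5 and 13.4 FPKM and then at 12.4 and 12.2 FPKM, and Lef1 was at 7.41 and 7.71 FPKM and then at 8.69 and 8.59 FPKM. Neither passed (adjusted p = 0.932 and 0.106). The remaining reads of Notum itself count among the 9 higher. Members named in more than 1 list, such as Dkk4 and Notum, count in each.

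Genes of the dental epithelium at large rose as well. Of 16 epithelial genes 14 were higher and none lower, with a median log2 fold change of 0.67, and the summed level went from 1186 and 1219.7 FPKM to 2116 and 2157 FPKM. In bulk samples more cells of a type and more RNA per cell cannot be told apart, and the part of the epithelial share in the rise of the knot genes was not tested. Krt5, the keratin of basal cells, rose from 291 and 295 FPKM to 642 and 664 FPKM (log2 fold change 1.15, SE 0.06, adjusted p = 0.00295). Of 14 hemidesmosome and laminin genes, which fix the epithelium to its basement membrane, 7 were higher and none lower, and 4 were higher with the pair averaged. Col7a1, the anchoring fibril collagen, led them with 10.6 and 11.0 FPKM and then 23.6 and 24.2 FPKM.

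Genes of the cervical loop, the growing rim of the epithelium, did not move together. Foxi3 rose from 14.0 and 15.7 FPKM to 35.1 and 36.6 FPKM and Sfrp5 from 1.79 and 2.25 FPKM to 3.85 and 4.16 FPKM. The progenitor gene Sox2 fell from 15.7 and 18.2 FPKM to 12.1 and 11.2 FPKM, and Igfbp5 and Lgr5 were lower too, so that 2 of 8 rose and 3 fell (1 with the pair averaged). Of 12 genes of the enamel matrix and ameloblasts only 5 passed the filter, and the other 7 were under it. Odam, a protein of the ameloblast surface, rose from 3.65 and 4.45 FPKM to 8.43 and 10.1 FPKM, and 4 were called higher (2 with the pair averaged). Dlx3, a transcription factor of enamel formation, rose from 17.3 and 20.3 FPKM to 41.2 and 42.4 FPKM. Ambn, which codes for the matrix protein ameloblastin, was at 6.2 and 5.70 FPKM and then at 7.16 and 8.27 FPKM and did not pass. The secreted proteases Mmp20 and Klk4 had 0 or 1 read in each of the 4 libraries.

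In the dental mesenchyme 6 of 16 genes were higher and 4 lower, with a median log2 fold change of -0.11, and 3 and 3 were called with the pair averaged. Of the homeobox genes in the list, Msx1, Lhx6, Lhx8 and Prrx1 fell and Dlx1, Dlx2, Dlx5 and Msx2 rose. Msx1 went from 103 and 110 FPKM to 73.0 and 78.3 FPKM, Lhx6 from 39.6 and 43.2 FPKM to 30.5 and 30.6 FPKM, and Lhx8 from 58.8 and 61.1 FPKM to 38.9 and 37.6 FPKM. Prrx1, a gene of facial mesenchyme, went from 72.8 and 70.4 FPKM to 44.2 and 45.1 FPKM (log2 fold change -0.68, adjusted p = 0.00455). Dlx5 was at 24.1 and 27.4 FPKM and then at 42.0 and 42.2 FPKM. Barx1, a molar field gene, was at 151 and 181 FPKM and then at 176 and 187 FPKM, and Pax9, which is needed to pass the bud stage, at 40.7 and 43.2 FPKM and then at 40.3 and 40.2 FPKM. Neither passed.

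Genes of the odontoblast lineage rose in part. The list includes Notum, whose remaining reads were called higher, and Wnt10a, which is also a gene of the knots. Of 10 genes tested 6 were higher and none lower (median log2 fold change 0.50), and 6 were called with the pair averaged. Dmp1, a mineral-regulating matrix protein, rose from 4.63 and 5.51 FPKM to 9.85 and 9.42 FPKM, the pyrophosphate transporter gene Ank from 13.2 and 13.3 FPKM to 20.9 and 20 FPKM, and Sall1 from 1.16 and 1.09 FPKM to 2.98 and 3.27 FPKM (adjusted p = 0.00701). Dspp, the major dentin protein gene, had 1 to 4 reads per library and was under the filter. The neuroepithelial filament gene Nes, used as an odontoblast marker, was at 16.9 and 18.6 FPKM and then at 18.6 and 18.3 FPKM and did not pass.

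Bone genes were mixed, with 4 of 16 higher and 3 lower. Spp1, which codes for osteopontin, rose from 29.0 and 25.4 FPKM to 118 and 112 FPKM (log2 fold change 2.08, SE 0.08, adjusted p = 0.00145), and Omd, osteomodulin, rose from 21.8 and 17.0 FPKM to 42.2 and 44.4 FPKM. Ibsp, bone sialoprotein, fell from 203 and 199 FPKM to 119 and 117 FPKM. Bglap2, an osteocalcin gene, had 2 and 1 reads in the E14.5 libraries and 45 and 26 reads at E16.5 (3.10 and 2.49 FPKM). It passed, although a fold against so few reads is not given. Bglap2 and Bglap are nearly identical copies, so reads could be split between them. The bone regulators Runx2 and Sp7 did not pass. Runx2 was at 28 and 27.7 FPKM and then at 25.1 and 24.6 FPKM (adjusted p = 0.0835). The promoter of Spp1 is shown because Spp1 was the most strongly changed bone gene with an entry, and the RUNX motif (TGTGGTT or, on the other strand, AACCACA, in capitals) begins 129 bases before the start in 1 of its 2 promoters. The sequence is from RefSeq, GRCm38.p6, 5′ to 3′ along the gene.
Spp1, chr5:104434861-104435160, plus strand: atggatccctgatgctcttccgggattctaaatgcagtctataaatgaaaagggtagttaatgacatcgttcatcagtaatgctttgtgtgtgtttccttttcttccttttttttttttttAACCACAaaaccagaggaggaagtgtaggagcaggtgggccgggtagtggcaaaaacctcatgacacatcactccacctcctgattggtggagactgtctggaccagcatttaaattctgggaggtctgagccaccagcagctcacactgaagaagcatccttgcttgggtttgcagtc
Of the 4 bone genes called higher 2 had an entry and 1 held the motif, and of the 10 osteoclast and resorption genes called higher 5 had an entry and none held it. It was found for 6.09% of all 27025 genes with an entry (5.27% of promoters).

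The dental follicle and its connective tissue had 3 of 15 genes higher and 2 lower (2 and 1 with the pair averaged). Periostin (Postn), a matrix protein of follicle and periodontal ligament, fell from 247 and 233 FPKM to 185 and 184 FPKM, and the tendon factor Scx from 7.21 and 9.63 FPKM to 3.95 and 3.51 FPKM. Bmp3, which marks the follicle, rose from 5.18 and 5.39 FPKM to 9.50 and 10.1 FPKM. Of 14 genes that pattern the jaw 2 were higher, the distal-less genes Dlx3 and Dlx5 already named, and 3 were lower. Alx4 went from 3.14 and 3.69 FPKM to 1.11 and 1.45 FPKM, and Pou3f3 and Ednra were the others.

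Genes of bone resorption rose steeply. Of 14 osteoclast and resorption genes 10 were higher and none lower, the median log2 fold change was 1.16, and 8 were called with the pair averaged. Acp5, the tartrate-resistant phosphatase of osteoclasts, rose from 9.54 and 9.25 FPKM to 49.2 and 47.0 FPKM (log2 fold change 2.34, SE 0.05, adjusted p = 0.000595). Ctsk, the collagen-cutting protease cathepsin K, rose from 46.5 and 47.3 FPKM to 173 and 168 FPKM, and Mmp9 from 32.8 and 36.0 FPKM to 85.2 and 84.6 FPKM. The fusion genes Ocstamp and Dcstamp, the co-receptor Oscar, the integrin Itgb3 and the proton pump subunit Atp6v0d2 rose as well. Atp6v0d2 was at 2.83 and 2.31 FPKM and then at 9.23 and 10.4 FPKM.

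The same list holds genes of the signal that drives osteoclasts. Tnfsf11, the osteoclast ligand RANKL, rose from 3.67 and 3.70 FPKM to 5.05 and 5.03 FPKM (log2 fold change 0.44, adjusted p = 0.0261) and its receptor gene Tnfrsf11a from 1.16 and 1.17 FPKM to 1.91 and 2.09 FPKM. The decoy receptor gene Tnfrsf11b was at 2.42 and 2.06 FPKM and then at 2.45 and 2.18 FPKM, and Csf1 and Nfatc1 did not pass either. Of 11 general macrophage genes 3 were higher (1 with the pair averaged) and none was lower, the median log2 fold change was 0.04 and the summed level was 67.2 and 69.3 FPKM and then 79.1 and 77.6 FPKM.

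Genes of the fetal growth programme, which are shut down as organs mature, fell. Of 14 tested 9 were lower and none higher, with a median log2 fold change of -0.30, and with the E16.5 pair averaged 4 were lower. Hmga2, a chromatin protein of growing fetal tissue, fell from 40.8 and 37.3 FPKM to 20.2 and 21.0 FPKM (log2 fold change -0.92, SE 0.06, adjusted p = 0.00455). The RNA-binding genes Igf2bp1 and Igf2bp2 fell too, Igf2bp1 from 10.4 and 11.7 FPKM to 5.95 and 5.64 FPKM. The imprinted growth factor Igf2 went from 52.2 and 59.2 FPKM to 33.0 and 34.4 FPKM and the imprinted adaptor Grb10 from 184 and 187 FPKM to 130 and 124 FPKM. Lin28b was under the filter, with 53 and 83 reads at E14.5 and 35 and 19 reads at E16.5. Cell cycle genes, in contrast, hardly moved: of 26 tested only Ccne1 was called, as lower (18.4 and 17.7 FPKM, then 14.9 and 13.7 FPKM), and the median was -0.05. Mki67 was at 51.1 and 55.1 FPKM and then at 51.0 and 52.3 FPKM, and Top2a at 61.5 and 58.9 FPKM and then at 61.3 and 59.9 FPKM.

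Embryonic globins, which primitive red cells carry before the later globins replace them, were lower for 2 of 3 genes. Hbb-y, an embryonic β-like globin with the largest fall by the rule for named genes, dropped from 153 and 118 FPKM to 1.23 and 1.5 FPKM (log2 fold change -6.53, SE 0.16, adjusted p = 0.000595), and Hba-x, the embryonic α-like globin, from 9.20 and 9.23 FPKM to 0.208 and 0.434 FPKM. Hbb-bh1 was at 0.734 and 0.691 FPKM and then at 0.0530 and 0.221 FPKM and did not pass. Adult-type globin genes showed no call, with Hbb-bs at 511 and 401 FPKM and then at 407 and 431 FPKM. The adult α-globin genes are near-identical copies and their reads could be split.

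By the rule for the largest changes (protein-coding, at least 1 FPKM on average and no overlap between the ages), the 10 largest rises were Mt4, Cnfn, Crct1, Sprr3, Adgrf4, Serpinb3a, Bglap2, Ckmt2, Mmp13 and Igfbpl1. Cnfn and Sprr3, proteins of the cornified envelope, went from 0.569 and 0.803 FPKM to 24.8 and 21.6 FPKM and from 0.970 and 0.976 FPKM to 18.2 and 16.9 FPKM. Mt4, a metallothionein of stratified epithelium, and Crct1 had 0 or 1 read per library at E14.5, and stood at 6.12 and 4.32 FPKM and at 2.21 and 1.83 FPKM at E16.5. Serpinb3a is one of a family of close copies. These are genes of stratified surface epithelium, whereas Mmp13 is a collagenase of bone and Ckmt2 a mitochondrial creatine kinase of muscle. Mmp13 went from 3.15 and 2.95 FPKM to 39.9 and 37.5 FPKM (log2 fold change 3.62, SE 0.06, adjusted p = 0.000526).

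The 10 largest falls were Hbb-y, Matn1, Hba-x, Cnmd, Col9a1, Cytl1, Otor, Col2a1, Ina and B3gat1. Matn1, Cnmd, Col9a1 and Col2a1 are genes of cartilage. Matn1 fell from 8.54 and 9.31 FPKM to 0.114 and 0.203 FPKM (log2 fold change -5.15, SE 0.21, adjusted p = 0.00172), Col9a1 from 5.32 and 6.18 FPKM to 0.327 and 0.535 FPKM, and Col2a1, the main cartilage collagen, from 30.4 and 32.0 FPKM to 5.68 and 4.94 FPKM. Over the cartilage list 8 of 11 genes were lower and 1, Sox9, was higher, with a summed level of 107 and 116 FPKM and then 55.4 and 57.1 FPKM. Ina and B3gat1 belong to neurons. Ina went from 1.74 and 2.22 FPKM to 0.251 and 0.363 FPKM.

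Markers of tissues beside the tooth moved in the same contrast. In the list of suprabasal oral epithelium 10 of 11 genes were higher and none lower, and the summed level was 171 and 165 FPKM at E14.5 and 1054 and 1017 FPKM at E16.5. Krt13, the keratin of that layer, rose from 76.3 and 75.7 FPKM to 580.3 and 554 FPKM. Skeletal muscle genes had 11 of 13 higher and 1 lower, with sums of 399 and 405 FPKM and then 952 and 938 FPKM, and the contractile gene Acta1 went from 154 and 140 FPKM to 443 and 430.1 FPKM. All 5 mast cell genes tested were higher, with sums of 30.1 and 27.0 FPKM and then 67.1 and 67.1 FPKM. Sensory neuron genes had 7 of 12 lower and 1 higher, with sums of 81.0 and 80.4 FPKM and then 53.6 and 53.2 FPKM, and Schwann cell genes 3 of 9 lower and 1 higher (2 and 1 with the pair averaged). Endothelial sums were 139 and 146 FPKM and then 129.8 and 126 FPKM, with 1 of 11 genes lower. The part of these tissues in the results above was not tested. Among signs of RNA handling, 4 of 9 immediate early and heat shock genes were higher and 1 lower, and no mitochondrially encoded gene of 13 passed.

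**Figure D3:**
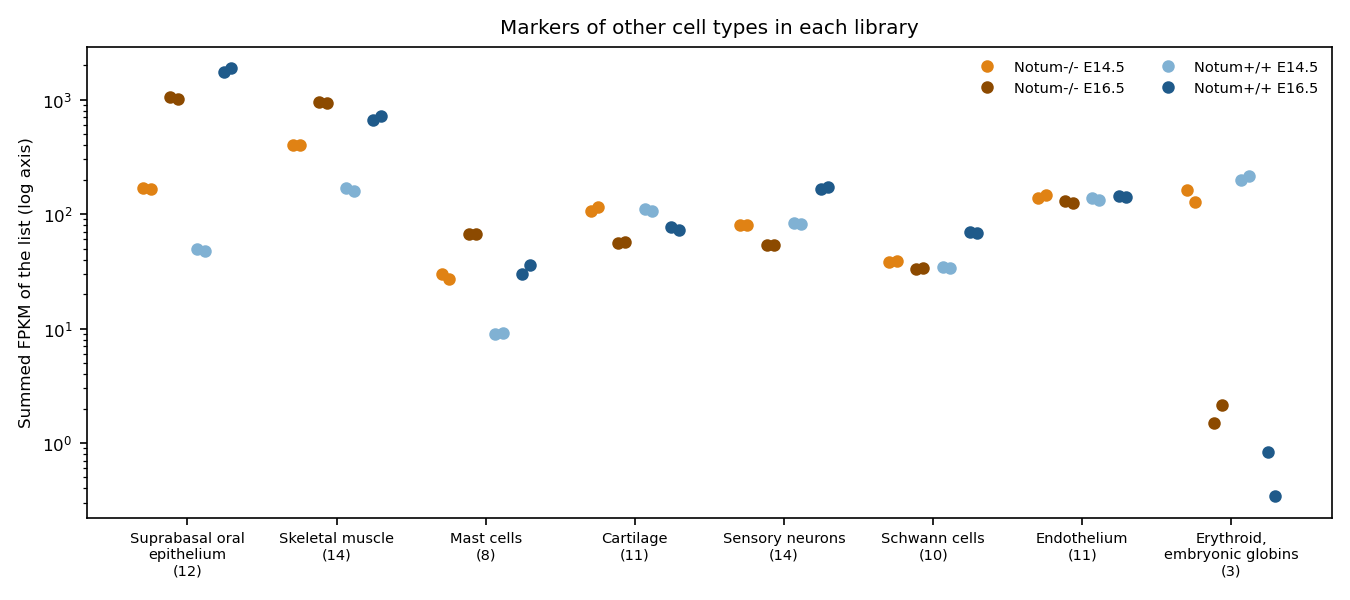
Summed FPKM (log axis) of the marker lists of 7 other tissues and of the embryonic globins in each library, with the number of genes listed in brackets. In Notum-/- molars the oral epithelium, muscle and mast cell sums rose with age and the cartilage, neuron and globin sums fell, while in Notum+/+ molars the neuron sums rose from about 83 to 166 and 171.

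The same genes were tested in Notum+/+ molars, which share no library with the Notum-/- ones. There 3451 genes were higher at E16.5 and 3020 lower, or 19.4% and 17.0% of those tested. With every library rescaled to the same sum (TPM) the counts were 2671 and 4216. Of the genes called higher without Notum 1079, or 80.5%, were called higher with it as well, and these made up 31.3% of the Notum+/+ list. Of those called lower 438, or 55.8%, were shared, which is 14.5% of the Notum+/+ list. In the opposite direction there were 17 of the higher and 63 of the lower genes. Across all 17809 genes the log2 fold changes of the 2 genotypes had a Pearson r of 0.49, and 0.66 over the 5525 genes with a mean of at least 10 FPKM. Genes are not independent replicates.

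The sizes of the changes were compared next. The 465 genes that rose more than 2-fold without Notum had a median log2 fold change of 1.48 there and of 1.97 with Notum, and 434 of them had the same sign. The 140 that fell more than 2-fold had a median of -1.49 without Notum and of -0.87 with it, and 103 had the same sign. Chosen the other way, the 1264 genes that rose more than 2-fold with Notum had a median of 1.51 there and of 0.82 without it, and the 428 that fell more than 2-fold with Notum had medians of -1.35 and -0.57. A choice on one genotype favours large values in it. Falls were larger in whichever genotype chose the genes, whereas the median rise was smaller without Notum by either choice.

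**Figure D4:**
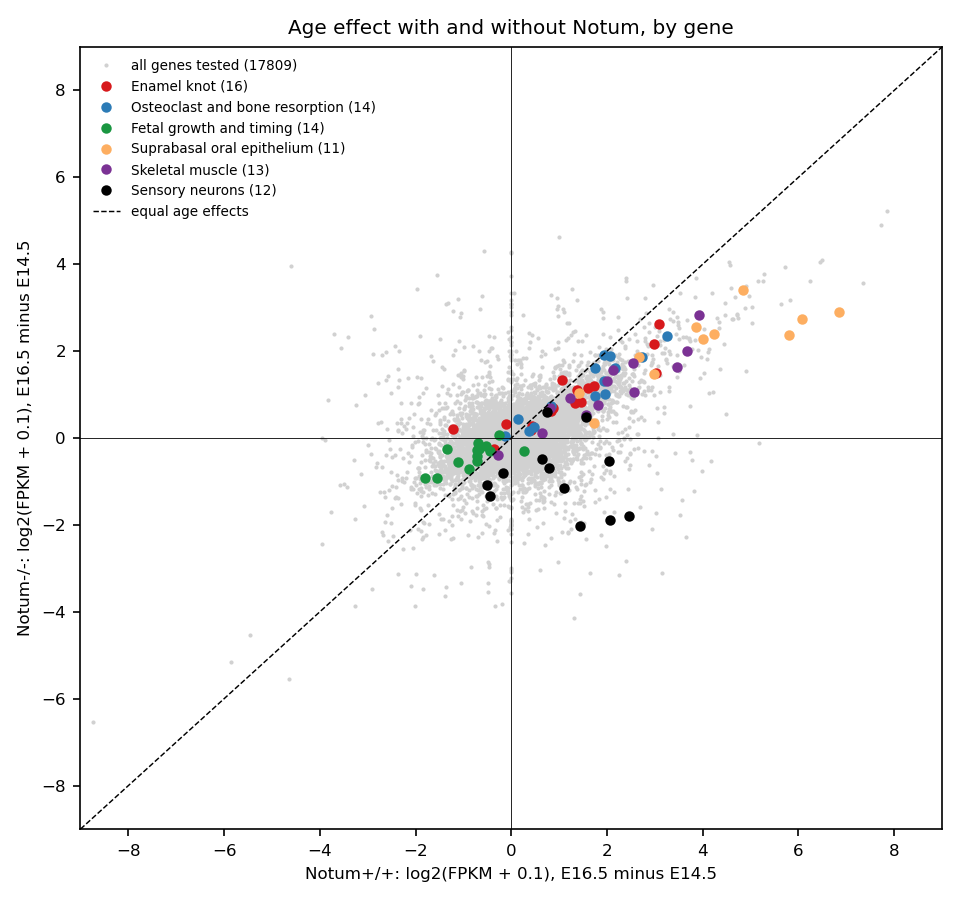
Age effect of each of the 17809 genes, as the difference of log2(FPKM + 0.1) between E16.5 and E14.5, in Notum+/+ molars (horizontal) against Notum-/- molars (vertical), with 6 gene lists in colour and a dashed line of equal effects. Enamel knot, osteoclast, muscle and oral epithelium genes lie mostly above 0 on both axes and below the dashed line, and 7 of 12 sensory neuron genes were called lower without Notum while 8 were called higher with it.

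The difference of the age effects (Notum-/- minus Notum+/+) was positive for 1592 genes and negative for 1798, or 8.94% and 10.1%. With TPM scaling the counts were 2771 and 1174, and the median difference over all genes moved from -0.01 to 0.11, so the balance of signs depends on the scaling. Of the 1340 genes called higher without Notum 825 showed no difference between genotypes that passed, 405 had a negative difference and 110 a positive one. Of the 785 called lower 446 showed none that passed, 178 had a negative difference and 161 a positive one. In the knot list, whose members are not all confined to the knot, 5 of 16 genes had a negative difference, Shh, Fgf3, Msx2, Cdkn1a and Sp6. Fgf20 had a positive one. The general epithelial lists moved the same way: 11 of 16 genes of the dental epithelium (median -0.50) and 7 of 14 hemidesmosome and laminin genes (median -0.36) had a negative difference and none a positive one. The part of the epithelial share in the difference of the knot genes was not tested. Msx2 rose by 2.16 without Notum and by 2.99 with it on the log2 scale, a difference of -0.83 (SE 0.06, adjusted p = 0.00214). For Shh the difference was -0.45, and its adjusted p of 0.0357 was close to the threshold. For Acp5 it was -0.91 (adjusted p = 0.00336), and 4 of 14 resorption genes had a negative one.

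Falls with age differed between the genotypes in several lists. Among fetal growth genes 8 of 14 had a positive difference and none a negative one, with Hmga2 at 0.89 (adjusted p = 0.00284): its E14.5 levels with Notum were 48.3 and 48.6 FPKM and its E16.5 levels 13.5 and 13.9 FPKM. Of 26 cell cycle genes 15 were called lower with Notum and 6 had a positive difference. Lgr5 had a difference of 0.94 (adjusted p = 0.00285), with 3.75 and 3.64 FPKM at E16.5 in Notum+/+ molars. Prrx1 had one of 1.27 (adjusted p = 0.000685), Lhx8 of 0.61 and Msx1 of 0.58, and these 3 fell in either genotype and by less without Notum. Over the dental mesenchyme list 6 of 16 genes had a positive difference and 4, Msx2, Dlx1, Dlx2 and Dlx5, a negative one. The summed level of the dental epithelium list rose from 1037 and 991 FPKM to 3398 and 3405 FPKM with Notum. Without Notum it rose from 1186 and 1220 FPKM to 2116 and 2157 FPKM. The part of the epithelial share in the smaller falls without Notum was not tested.

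By the rule for the largest differences, those on the negative side were Cplx1, Sncg, Nefm, Stmn3 and Krt13, and the genes other than Krt13 are known from neurons. Nefm, a neurofilament gene, was at 1.92 and 1.90 FPKM and then at 0.629 and 0.367 FPKM without Notum, and at 3.45 and 3.19 FPKM and then at 18.4 and 18.8 FPKM with it, a difference of -4.24 (SE 0.27, adjusted p = 0.00178). The neighbouring gene Nefl overlaps it and moved likewise. Krt13 rose from 8.96 and 8.95 FPKM to 1009 and 1075 FPKM with Notum, a difference of -3.95 (SE 0.07, adjusted p = 8.84e-06), and its E14.5 levels already stood apart, at 76.3 and 75.7 FPKM without Notum. Sensory neuron genes had a negative difference in 9 of 12, Schwann cell genes in 8 of 9, oral epithelium genes in 9 of 11 and muscle genes in 11 of 13. Muscle sums without Notum were the higher at both ages (399 and 405 against 169 and 159 FPKM, then 952 and 938 against 667 and 715). Oral epithelium sums were higher at E14.5 (171 and 165 against 49.1 and 47.1 FPKM) and lower at E16.5. Neuron sums were close at E14.5 (81.0 and 80.4 against 83.1 and 82.7 FPKM) and lower at E16.5. The largest positive differences were those of Lipi, Hbb-y, Kera, Zfp993 and Myl3. Kera, a small proteoglycan of connective tissue, was at 17.0 and 13.9 FPKM and then at 11.8 and 11.4 FPKM without Notum and fell from 11.1 and 11.5 FPKM to 1.96 and 2.10 FPKM with it, a difference of 2.02 (SE 0.14, adjusted p = 0.00193).

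Among large gene families, 7 of 36 collagen genes were higher and 10 lower in Notum-/- molars (2 and 8 with the E16.5 pair averaged), and Col1a1, the most abundant, was at 1191 and 1355 FPKM and then at 1450.2 and 1478 FPKM (adjusted p = 0.279). Of 77 cytosolic ribosomal protein genes none was higher and 7 were lower. In Notum+/+ molars 26 of the 77 were higher and 0 lower. The difference of the age effects was positive for 1 and negative for 31 of them (median -0.41), against 8.94% and 10.1% of all genes. Of 37 replication-dependent histone genes 2 were higher and none lower in Notum-/- molars, and their RNA mostly lacks the poly-A tail that these libraries select. With the pair averaged no gene of the ribosomal and histone families was called.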

How the data were processed

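Poly-A-selected total RNA of dissected molar germs was sequenced as paired ends. Per the labels and the methods, the authors aligned reads to mm10 with HISAT2 2.0.5, counted them per gene with featureCounts 1.5.0-p3 and deposited FPKM values. Their sums ranged from 258018 to 281172 between libraries. Whether counting used strand is not given in the sources used here, and genes that overlap others share reads. The deposited columns of the authors' own comparisons (fold changes and p-values) were not used. Reads per gene were rebuilt from FPKM and gene length and came out whole, within 0.05 read, for all values, which gave the depth.

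Genes with a mean above 0.3 FPKM in the 4 Notum-/- libraries and not on X or Y were tested on log2(FPKM + 0.1) with limma 3.58.1 in R 4.3.3 (variance trend), with Benjamini-Hochberg adjustment over all 17809 genes and a threshold of 0.05. A log2 fold change on this scale understates the change of low genes. The same fit was run on the 4 Notum+/+ libraries and, for the difference of the age effects, on all 8. The fit was also run on simulated data with the same added spread for every gene and at both ages. The replicate pairs of the real data differed unequally, so that run does not test the calls. Replicates were compared with chi-square tests of their reads. Genes named are Notum, the 10 largest rises and falls among called protein-coding genes of at least 1 FPKM, up to 6 members per gene list with all members of the knot and Wnt lists allowed, and the 5 largest differences between genotypes in each direction. Other list members are named to account for counts, and were chosen after their values were seen. Members and gene lists were chosen with earlier results of these data known. Promoters are from RefSeq (GRCm38.p6), matched by symbol, and were searched on both strands.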

Additional observations from a re-analysis of the deposited data

Results flagged for a closer look

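The difference of the age effects (Notum-/- minus Notum+/+), tested as an interaction over all 8 libraries, passed for 1592 genes with a positive value and for 1798 with a negative one. Among genes of the tooth and its bone it was -0.45 for Shh, -0.83 for Msx2 and -0.91 for Acp5 on the log2 scale, all of which rose in either genotype. It was 1.42 for Fgf20, which passed as lower in Notum+/+ molars alone. Among genes that fell in both genotypes it was 0.58 for Msx1, 0.61 for Lhx8, 1.27 for Prrx1, 0.89 for Hmga2 and 0.94 for Lgr5. Kera differed by 2.02 and passed as lower in Notum+/+ molars alone. Nefm differed by -4.24, lower with age in Notum-/- and higher in Notum+/+ molars, and Krt13 by -3.95, higher in both.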

How the results depend on the processing

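The Notum-/- age effect was called for 1340 genes higher and 785 lower. Without a variance trend the counts were 857 and 341, with voom on rebuilt reads 2391 and 1920, and at an adjusted p under 0.1 2126 and 1648. With no filter on low values 454 genes were lower, and with all 8 libraries in 1 fit 1257 were lower. Leaving out 1 of the 4 libraries gave 0 to 563 higher and 0 to 290 lower, with 563 and 290 without E14.5 replicate 1, 491 and 157 without E14.5 replicate 2, and 0 without either E16.5 library. In 1 fit of all groups, an alternative chosen after seeing the data, leaving out 1 Notum-/- library gave 785 to 1202 higher and 408 to 703 lower (1181 and 512 without E14.5 replicate 2, 834 and 408 without E16.5 replicate 1, 785 and 420 without E16.5 replicate 2), and averaging the E16.5 pair 770 and 363, of which 756 and 342 were among the main calls. Leaving out 1 Notum+/+ library gave 0 to 2004 genes higher and 0 to 1134 lower in Notum+/+ molars. No gene passed there without E16.5 replicate 1 (3264 and 2944 at an unadjusted p under 0.05) or replicate 2 (3238 and 3056), and 1373 and 588 passed without E14.5 replicate 2. For the difference of the age effects, positive and negative counts were 2771 and 1174 with TPM, 934 and 1191 without a trend and 2491 and 2721 at an adjusted p under 0.1. With no filter 1057 were positive. Leaving out 1 library gave 233 to 1331 positive and 434 to 1745 negative, the lowest without Notum-/- E16.5 replicate 2. The cause of these shifts was not tested. The medians of the 36 gene lists kept their sign in every setting that used all libraries, and 34 to 35 did so with 1 library left out.

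Genes named in the text that changed sign were none of those called. Of the named age effects in Notum-/- molars 19 lost their call with the E16.5 pair averaged and 40 without a variance trend (adjusted p from 0.0512 to 0.126). With 1 library left out, log2 fold changes ranged from -0.287 to 0.0607 for Hbb-bs, from -0.0208 to 0.0424 for Top2a (-0.00538 without E16.5 replicate 1), from -0.0940 to 0.0139 for Mki67, from -0.00858 to 0.127 for Nes, from -0.126 to 0.0982 for Axin2 and from -0.0634 to 0.159 for Tnfrsf11b (-0.0340 without E16.5 replicate 1), with the same values in 1 fit of all groups. The difference for Dkk4 ranged from -0.0370 to 0.566, and TPM moved Axin2 to 0.00381. Replicate numbers are shared between the ages, and deviations of same-numbered libraries correlated at 0.05 (Notum-/-) and 0.03 (Notum+/+). With 2 libraries per group this cannot tell whether same-numbered libraries share a batch. With the replicate block 1321 and 807 genes passed in Notum-/- molars and 2750 and 2272 in Notum+/+ molars, and the difference passed for 906 and 1198. With 2 libraries per group, 1 read per kb equals at most 0.0452 FPKM, and genes under the filter of 0.3 FPKM were not tested.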
